A study of Mus musculus with 12 samples.

Results

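The difference between the effect of POGZ knockout in tumors and its effect in cultured cells was examined in 4T1, a mouse mammary carcinoma line used as a model of triple-negative breast cancer. The contrast was defined as the knockout minus control difference in tumors minus the knockout minus control difference in culture, so all 12 of the 12 libraries of the series entered it, in 4 groups of 3. Cultures titled POGZ_KO (genotype label POGZ KO) and POGZ_VC (genotype label POGZ WT) were 4T1 cells in DMEM with 10% FBS taken at 75% confluency. Tumors of the same titles grew from 50000 cells injected into a mammary fat pad; the hosts were BALB/c mice 8 weeks old, and tumors were taken on day 28 and flash frozen. What VC stands for, how the gene was disrupted and whether the knockout cells are 1 clone or a pool are not given in the sources used here, and nothing says that the 3 cultures of a group were grown separately, so p-values measure only the spread between these libraries.

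POGZ is a zinc finger protein with a domain derived from a transposase. It binds the heterochromatin protein HP1 and is known for its part in mitosis and in the repression of genes. A cultured line holds cancer cells alone, whereas a fat-pad tumor also holds macrophages, fibroblasts, vessels and other host cells, whose RNA is read in the same library. Total counts ran from 14724518 to 21863223 in cultures, from 4712001 to 8338828 in control-labelled tumors and from 12128993 to 13043831 in knockout-labelled tumors, so that tumor depth moved with the label. The 10 markers of the epithelial cancer cell were all detected, with summed levels of 2851 to 3178 CPM (counts scaled to a common library total) in cultures and 1882 to 2334 CPM in control-labelled and 1680 to 1940 CPM in knockout-labelled tumors. The 23 macrophage and monocyte markers summed to 52.6 to 67.9 CPM in cultures, where 4 of them in the controls and 7 in the knockouts had no count, and to 2144 to 4544 CPM in tumors. The tumor POGZ_KO_8459 stood apart, with 4975 CPM of B and plasma cell markers against 12.2 to 163 CPM in the other tumors. The tumor POGZ_KO_8454 was closer to the control-labelled tumors (mean r = 0.94 over 11479 genes) than to the other knockout-labelled ones (mean r = 0.91). So was POGZ_KO_8455, by less (0.947 against 0.943). POGZ_KO_8459 was closer to the other knockout-labelled tumors (0.929) than to the control-labelled ones (0.921).

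The RNA of the targeted gene did not follow the labels in a way that would check them. Pogz (chr3:94837567-94882326, GRCm38) had 50.9, 52.0 and 48.1 CPM in the control-labelled cultures and 68.4, 67.8 and 68.6 CPM in the knockout-labelled ones. In tumors it had 86.0, 103 and 109 CPM with the control label and 131, 106 and 84.5 CPM with the knockout label. It was thus higher with the knockout label in culture, without overlap, and the groups overlapped in tumors. The difference of the 2 effects for Pogz was -0.33 ± 0.21 (log2, SE) with an adjusted p of 0.484. A small edit can leave RNA counts in place, so these counts do not test the edit, and the groups are called by their labels throughout.

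The effect differed between tumors and culture for 377 of 18419 genes tested, or 2.05%, by the quasi-likelihood test of edgeR with Benjamini-Hochberg adjustment at a threshold of 0.05. The difference was above 0 for 209 genes (1.13%) and below 0 for 168 (0.912%), and 2831 genes had an unadjusted p under 0.05. In fits of 1 system at a time, 7523 of 15705 genes (47.9%) passed in culture and 0 of 17153 (0%) in tumors by edgeR. In tumors 956 genes had an unadjusted p under 0.05, and DESeq2 called 66. The biological coefficient of variation was 5.23% in cultures and 28.5% in tumors, so a tumor effect of the same size was harder to call. The difference test pooled both systems into 1 spread per gene, at 20.1% in common over the fit of 12. Each SE of a difference carries that pooling. When the systems were fitted apart and the effects then combined, 282 of 14873 genes were called. Of the 377, 343 were tested there and 251 called. Leaving out POGZ_KO_8454 raised the count of called differences to 1588, among them all 377. Leaving out POGZ_VC_8448 gave 629, leaving out any other tumor gave 286 to 379, and leaving out any 1 culture gave 147 to 165.

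Most called genes had a clear effect in culture and little or the opposite in tumors. The size of the log2 fold change was larger in culture for 311 of the 377, with a median size of 1.27 in culture and 0.38 in tumors, both from the fit of all 12 libraries. Over all genes tested the median sizes were 0.23 and 0.21. The point estimates had opposite signs for 308 genes, the same sign but smaller in tumors for 65, and the same sign but larger in tumors for 4. Picking genes by the difference of the 2 effects favors opposite signs. Of all 1693 genes tested with a culture effect of more than 1 in size, 47.3% had the same sign in tumors. By the separate fits, 151 of the 377 were higher in knockout-labelled cultures and 191 lower, while 35 passed in neither system. Overlap of groups was judged on log2 CPM after TMM scaling, edgeR's correction for differences in library composition. The culture groups overlapped for 11 of the 377 and the tumor groups for 243, whereas over all genes tested 49.6% had culture groups apart and 10.6% tumor groups apart. For 376 of the 377, the 9 knockout minus control pair differences in tumors lay wholly to 1 side of the 9 in culture, as they did for 10.8% of all genes tested.

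**Figure D1:**
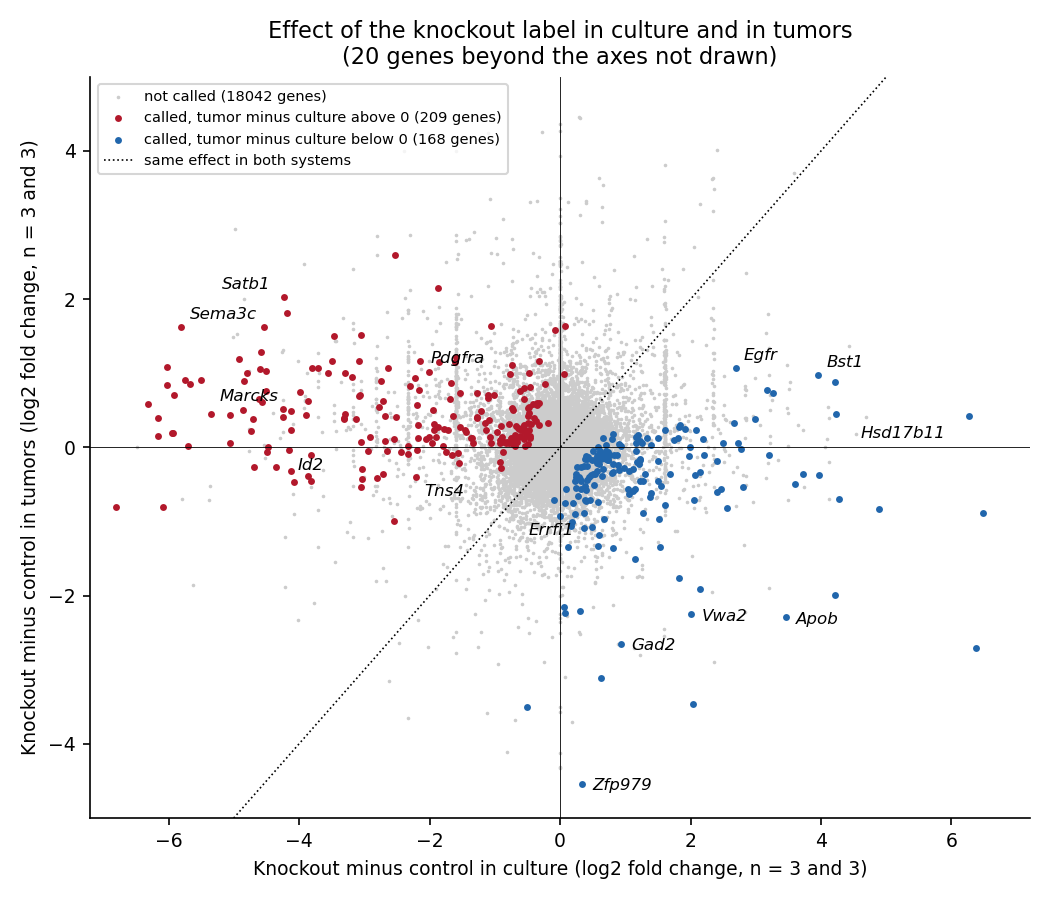
Log2 fold change of knockout-labelled against control-labelled libraries in culture (x axis) and in tumors (y axis), 1 point per gene, from the fit of all 12 libraries. The 209 red genes, called with a difference above 0, lie mostly left of 0 and the 168 blue ones mostly right of 0, while few called genes lie far from 0 on the tumor axis.

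The called difference with the smallest p was that of Marcks, a membrane-bound substrate of protein kinase C that binds actin (ENSMUSG00000069662, chr10:37133375-37138920, minus strand, GRCm38). It had 75.4, 78.2 and 75.4 CPM in control-labelled cultures and 1.45, 1.63 and 2.42 CPM in knockout-labelled ones. In the control tumors POGZ_VC_8447, POGZ_VC_8448 and POGZ_VC_8451 it had 127, 101 and 123 CPM, and in the knockout tumors POGZ_KO_8454, POGZ_KO_8455 and POGZ_KO_8459 137, 150 and 196 CPM. The knockout-labelled libraries were therefore far below the controls in culture and above all of them in tumors, and neither pair of groups overlapped. The log2 fold change was -5.35 in culture and 0.46 in tumors, a difference of 5.81 ± 0.27 (SE) with an adjusted p of 1.38e-06. That call was kept in all 27 alternatives tried.

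Other genes that fell in knockout-labelled cultures had tumor groups that overlapped. Id2, an inhibitor of basic helix-loop-helix transcription factors (chr12:25093799-25097140), had 102, 87.2 and 86.0 CPM in the control cultures and 4.64, 5.50 and 5.26 CPM in the knockout cultures. In tumors Id2 had 31.6, 31.5 and 48.0 CPM with the control label and 24.5, 39.3 and 46.1 CPM with the knockout label. The culture groups were far apart and the tumor groups overlapped, with log2 fold changes of -4.16 and -0.03 and a difference of 4.13 ± 0.33 (adjusted p = 0.000106). Lcp1, the actin-bundling protein L-plastin (chr14:75131101-75230842), had 98.8, 96.0 and 89.0 CPM in control cultures, 16.1, 16.2 and 17.5 CPM in knockout cultures, 245, 234 and 336 CPM in control tumors and 257, 365 and 463 CPM in knockout tumors. Its difference was 2.92 ± 0.28 (adjusted p = 0.000572), and the tumor groups overlapped. Lcp1 is also made by leukocytes, whose markers were abundant in tumors only. Their part in its tumor values was not tested.

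A set of low-level genes was almost silent in the knockout-labelled cultures and was read in both tumor groups. Zfhx4, a homeodomain zinc finger factor, averaged 6.28 CPM in control cultures, 0.114 CPM in knockout cultures, 13.8 CPM in control tumors and 14 CPM in knockout tumors, a difference of 5.73 ± 0.41. For Gramd1b, a sterol transfer protein of the endoplasmic reticulum, the difference was 5.27 ± 0.41, and for Armcx4, an armadillo-repeat gene on the X chromosome, 6.65 ± 0.52. Serpine2, a secreted inhibitor of serine proteases, differed by 6.62 ± 0.69, Antxr1, an anthrax toxin receptor that binds collagen, by 5.09 ± 0.50, and Arhgdib by 4.48 ± 0.50. The tumor groups of these 6 genes overlapped, and in culture none did. Dmd, the dystrophin gene, had the lowest culture value of the called genes, with a log2 fold change of -6.81 in culture and -0.81 in tumors and a difference of 6.0 ± 0.88 (adjusted p = 0.00486).

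Tns4, a focal adhesion protein of the tensin family, kept part of its fall. It had 251, 240 and 237 CPM in control cultures and 52.4, 52.3 and 52.7 CPM in knockout cultures. In tumors it had 328, 372 and 275 CPM with the control label and 259, 241 and 236 CPM with the knockout label. The knockout-labelled libraries were lower without overlap in both systems, by -2.21 in culture and -0.41 in tumors on the log2 scale, and the difference was 1.81 ± 0.14 (adjusted p = 0.000106).

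**Figure D2:**
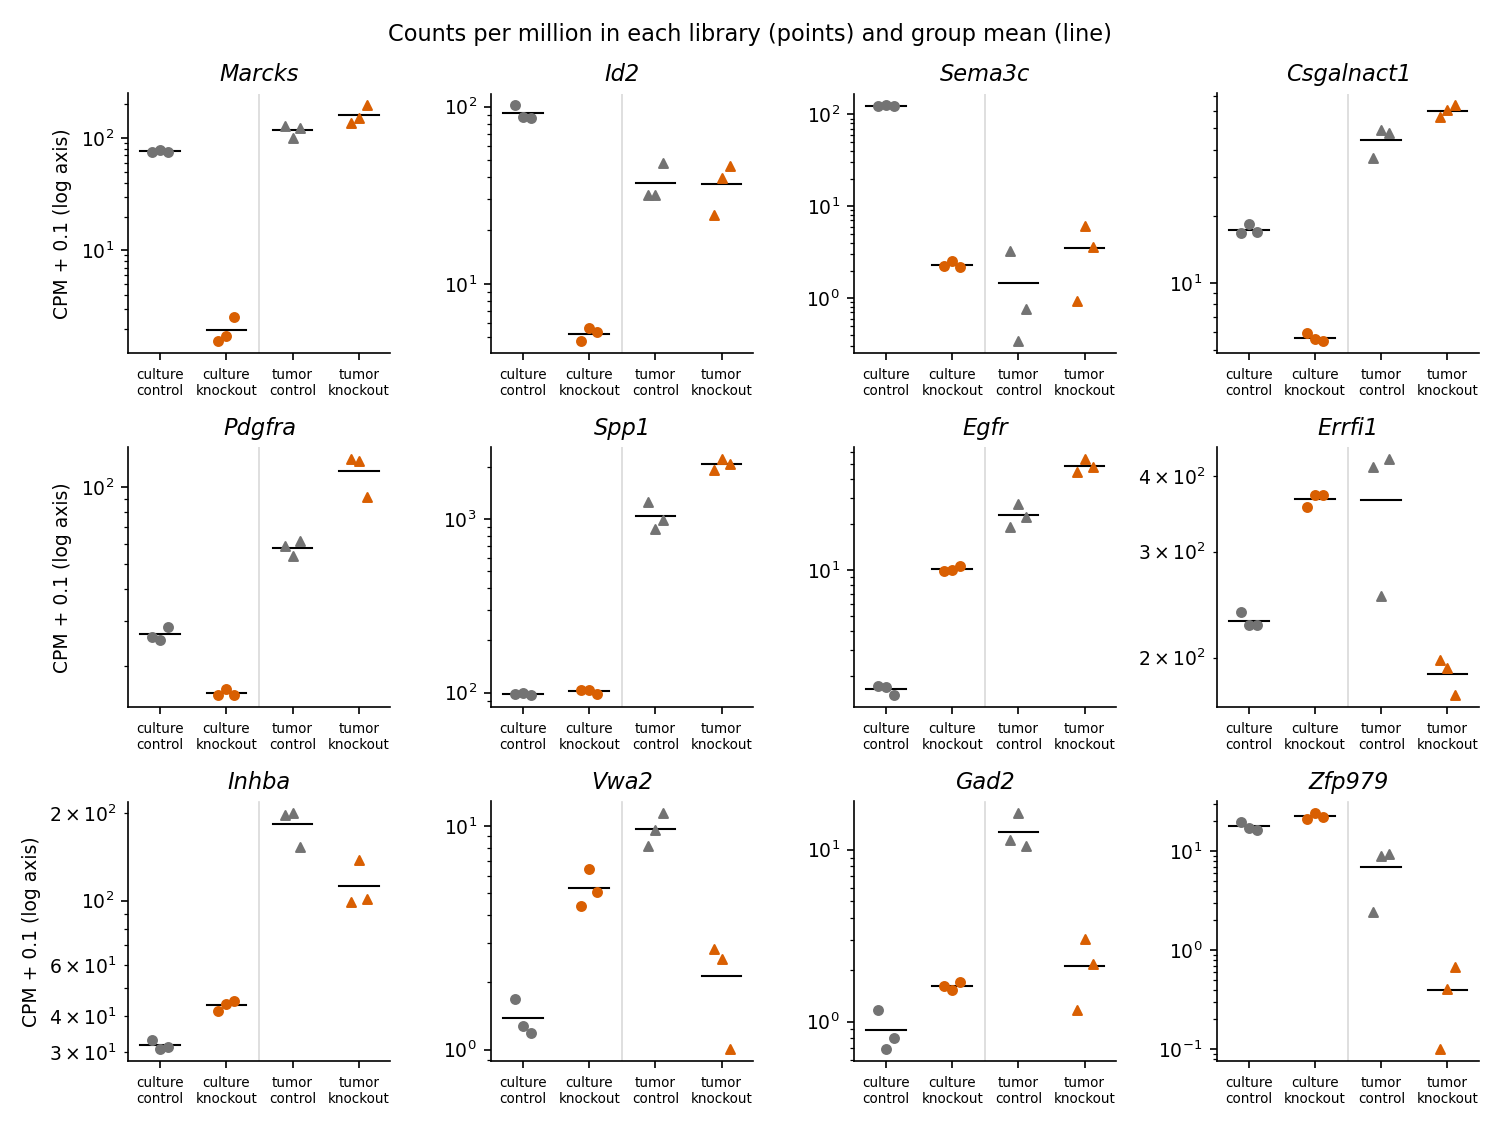
CPM plus 0.1 (log axis) of 12 genes in each library: circles are cultures, triangles tumors, grey control-labelled, orange knockout-labelled, and the line is the mean of 3 libraries. Marcks, Csgalnact1 and Pdgfra were lower with the knockout label in culture and higher in tumors, Errfi1, Inhba, Vwa2, Gad2 and Zfp979 the other way round, and Egfr was higher in both.

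Some members of the semaphorin family had differences above 0. Semaphorins are secreted or membrane-bound cues read by plexins and neuropilins, and they act on cell migration and vessels in tumors. Of 25 genes tested in the list of semaphorins, plexins and neuropilins, 3 were called, all above 0 (12% of the list, 1.13% of all genes), and 21 of the 25 differences were above 0, as were 9689 of 18419 over all genes. The median difference was 0.50, against 0.03 over all genes tested, with a median of -0.44 in culture and 0.12 in tumors. Sema3c, a secreted semaphorin (chr5:17574281-17730268), had 122, 125 and 123 CPM in control cultures and 2.14, 2.44 and 2.06 CPM in knockout cultures. In tumors it was scarce, with 3.18, 0.240 and 0.664 CPM in the controls and 0.824, 5.98 and 3.53 CPM in the knockouts, so the groups overlapped. Its difference was 7.43 ± 0.83 (adjusted p = 0.00119), and the control tumors held far less Sema3c than the control cultures they are set against. Sema6a differed by 6.15 ± 0.62 and Sema6d by 3.10 ± 0.45. Slit2, a ligand of the Robo receptors outside that list, had no count in the knockout cultures and 0.583 CPM on average in the controls, at least 3.39-fold lower at a floor of 3 counts per library. In tumors it had 16.8, 12.1 and 15.5 CPM with the control label and 16.7, 37.8 and 25.7 CPM with the knockout label. The tumor groups overlapped in CPM and were apart after TMM scaling.

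Genes that rose in knockout-labelled cultures often had no matching rise in tumors. Hsd17b11, a steroid dehydrogenase of lipid droplets (chr5:103989762-104021919), had 0.0565, 0.0536 and 0 CPM in control cultures and 4.35, 3.06 and 3.16 CPM in knockout cultures. Its tumor values were 16.6, 8.87 and 12.5 CPM in the controls and 16, 16 and 18.6 CPM in the knockouts, which overlapped, and the difference was -5.84 ± 0.57 (adjusted p = 0.000572). Il18, an inflammatory cytokine released after inflammasome activation, had 1.13, 0.912 and 1.35 CPM in control cultures and 6.32, 6.04 and 6.95 CPM in knockout cultures. In tumors Il18 had 14.4, 14.5 and 14.9 CPM with the control label and 11.9, 18 and 15.8 CPM with the knockout label. The rise in culture was without overlap and the tumor groups were intermixed, with a difference of -2.45 ± 0.27 (adjusted p = 0.00107). Apob, the main protein of low density lipoprotein, had 2.82, 3.33 and 2.70 CPM in control cultures against 34.8, 31.2 and 31.8 CPM in knockout cultures, and at most 2.79 CPM in any tumor. Its difference was -5.75 ± 0.82 (adjusted p = 0.00434).

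Bst1, an ectoenzyme that uses NAD (chr5:43818885-43843986), rose in culture from 8.92, 9.39 and 9.45 CPM to 145, 150 and 140 CPM. Its tumor values were 21.6, 9.47 and 28.7 CPM with the control label and 13.7, 70.5 and 33.9 CPM with the knockout label, which overlapped. The difference of -2.99 ± 0.67 had an adjusted p of 0.0454 and its call was lost in 17 of 27 alternatives, with adjusted p up to 0.136, among them the fits without any 1 culture and those without POGZ_KO_8459, POGZ_VC_8447 or POGZ_VC_8451. Cldn3, a tight junction claudin, differed by -2.34 ± 0.34 and Ubqln2, a ubiquitin-binding shuttle protein, by -3.34 ± 0.43. Ubqln2 was higher with the knockout label in both systems, at 29.2 against 1.55 CPM in culture and 23.7 against 13.2 CPM in tumors. Kctd12b differed by -3.78 ± 0.47.

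The epidermal growth factor receptor and its inhibitor parted ways in tumors. Egfr (chr11:16752203-16918158) had 1.64, 1.61 and 1.4 CPM in control cultures and 9.73, 9.98 and 10.5 CPM in knockout cultures. Tumors had 19.1, 27.1 and 22.3 CPM with the control label and 44.4, 53.4 and 47.5 CPM with the knockout label. It was higher with the knockout label in both systems without overlap, by 2.69 in culture and 1.07 in tumors, and the difference was -1.62 ± 0.20 (adjusted p = 0.00249). Errfi1, a feedback inhibitor of the receptor's kinase (chr4:150853919-150868892), had 238, 226 and 226 CPM in control cultures and 355, 373 and 373 CPM in knockout cultures, but 415, 253 and 427 CPM in control tumors and 198, 192 and 173 CPM in knockout tumors. It was higher with the knockout label in culture and lower in tumors, with a difference of -1.63 ± 0.23 (adjusted p = 0.00434). These were the 2 called genes of 13 tested in the list of EGF receptors and ligands (2.05% over all genes). The median difference of the list was 0.51, with 8 of the 13 above 0.

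Of the 377 genes, 110 had groups without overlap in both systems and opposite directions: 60 were higher with the knockout label in culture and lower in tumors, and 50 the reverse. Among the 377, 13 (3.45%) had groups apart in the same direction. Over all genes tested, 332 (1.8%) had the opposite directions and 650 (3.53%) had groups apart in the same direction. Genes enter the 377 by the difference of their 2 effects, which favors opposite directions, so the 110 are not a separate result. The tumor side of each reversal rests on 3 tumors against 3 and did not pass the tumor test.

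Among reversals toward the knockout-labelled tumors, Pdgfra, a platelet-derived growth factor receptor that marks fibroblasts (chr5:75152292-75198215), had 25.9, 25.3 and 28.4 CPM in control cultures and 15.4, 16.2 and 15.3 CPM in knockout cultures. It had 58.6, 53.6 and 61.3 CPM in control tumors and 128, 126 and 91.7 CPM in knockout tumors. The difference was 1.76 ± 0.18 (adjusted p = 0.000713) and was called in every alternative. The 15 fibroblast markers, Pdgfra among them, summed to 2856 to 4519 CPM in control tumors and 4072 to 7579 CPM in knockout tumors, against 35.3 to 47.3 CPM in cultures, where 5 of the 15 had no count in either group. Of these markers Pdgfra was called above 0 and Postn below 0, at -1.99. These calls were 13.3% of the list, against 2.05% of all genes. The difference was above 0 for 11 markers and below 0 for 4. In bulk tumors more cells of a type and more RNA per cell cannot be told apart. Csgalnact1, an enzyme of chondroitin sulfate synthesis, had 16.8, 18.3 and 16.9 CPM in control cultures, 5.85, 5.50 and 5.35 CPM in knockout cultures, 36.5, 49.3 and 47.6 CPM in control tumors and 56.1, 60.8 and 63.5 CPM in knockout tumors, a difference of 2.07 ± 0.18 (adjusted p = 0.000184). Ctsl, a lysosomal cysteine protease, differed by 1.08 ± 0.21, and Nfkb2, the p100 subunit of NF-kB, by 0.51 ± 0.12 (adjusted p = 0.0204 and 0.0460). Their calls were lost in 8 and 22 of 27 alternatives, in both without any 1 culture and for Nfkb2 also without POGZ_KO_8455, POGZ_VC_8447 or POGZ_VC_8451.

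Among reversals toward the control-labelled tumors, Vwa2, a matrix protein with von Willebrand factor domains (chr19:56874249-56912078), had 1.58, 1.18 and 1.08 CPM in control cultures and 4.29, 6.32 and 4.99 CPM in knockout cultures. Its tumor values were 8.06, 9.47 and 11.3 CPM with the control label and 2.72, 2.45 and 0.903 CPM with the knockout label. The log2 fold changes of 2.01 and -2.25 gave a difference of -4.26 ± 0.48 (adjusted p = 0.00126). Gad2, an enzyme that makes the transmitter GABA (chr2:22622205-22693874), had 1.07, 0.590 and 0.702 CPM in control cultures and 1.51, 1.43 and 1.60 CPM in knockout cultures, against 11.2, 16.2 and 10.4 CPM in control tumors and 1.07, 2.91 and 2.05 CPM in knockout tumors. Most of its difference of -3.58 ± 0.49 (adjusted p = 0.00338) came from tumors. Zfp979, a zinc finger gene (chr4:147611937-147642513), had 19.7, 17.1 and 16.3 CPM in control cultures and 21.3, 24.0 and 22.0 CPM in knockout cultures. In tumors it was under 1 CPM in all 3 knockouts, at 0, 0.307 and 0.574 CPM, and had 2.33, 8.75 and 9.17 CPM in the controls, for a difference of -4.87 ± 0.72 (adjusted p = 0.00512).

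Casp12, an inflammatory caspase gene of the endoplasmic reticulum (chr9:5345430-5373032), was low in culture, with 2.65, 2.31 and 1.94 CPM in controls and 4.93, 4.96 and 4.48 CPM in knockouts, and high in tumors, with 148, 147 and 144 CPM in controls and 85.4, 113 and 86.3 CPM in knockouts. Its difference was -1.68 ± 0.18 (adjusted p = 0.00107). For Scn8a, a sodium channel gene, the control cultures had no count and the knockout cultures 0.823 CPM on average, at least 5.01-fold higher at a floor of 3 counts per library, while the tumors had 21, 24.1 and 33.7 CPM with the control label and 16.7, 11.7 and 14.5 CPM with the knockout label. Foxj1, a factor of ciliated cells, differed by -3.58 ± 0.57, and Aldoc, a glycolytic aldolase, by -2.65 ± 0.44. Nupr1, a stress-induced chromatin protein, had log2 fold changes of 0.19 in culture and -0.74 in tumors and differed by -0.94 ± 0.20 (adjusted p = 0.0366). Its call was lost in 13 of 27 alternatives, those without any 1 culture or any 1 control tumor among them.

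Some called genes had no called change in culture. Spp1, the secreted matrix protein osteopontin (chr5:104435118-104441050), had 98.7, 99 and 96.6 CPM in control cultures and 104, 104 and 98.3 CPM in knockout cultures, which overlapped. In tumors it had 1262, 883 and 983 CPM with the control label and 1919, 2212 and 2070 CPM with the knockout label, which did not. Its difference was 0.93 ± 0.16 (adjusted p = 0.0141), and the call was lost in 7 of 27 alternatives, those without any 1 knockout culture among them (adjusted p up to 0.0723 over all). Another of the 7 was the one that fitted the 2 systems apart and combined their effects. Spp1 is also a product of tumor macrophages, and the macrophage and monocyte markers ranged from 2144 to 3878 CPM in control tumors and from 2439 to 4544 CPM in knockout tumors, which overlapped. Their part in the Spp1 result was not tested. Adamts8, a secreted metalloprotease, had 1.70, 3.36 and 1.73 CPM in control tumors and 6.68, 7.28 and 7.06 CPM in knockout tumors, with a log2 fold change of -0.08 in culture and a difference of 1.67 ± 0.30 (adjusted p = 0.0156). Its culture groups overlapped in CPM and were apart after TMM scaling, and its call was lost in 10 of 27 alternatives, those without any 1 culture among them (adjusted p up to 0.451). Another of the 10 was the one that fitted the 2 systems apart.

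The large tumor values of Satb1 and Ctse rested on 1 library. Satb1, a chromatin organizer of lymphocytes, had 3.55, 9.66 and 69.8 CPM in POGZ_KO_8454, POGZ_KO_8455 and POGZ_KO_8459, against 5.28 to 7.97 CPM in control tumors. Its difference was 6.25 ± 1.35, and 4.17 without POGZ_KO_8459, the library with the high B and plasma cell markers. The call of Satb1 was lost without any 1 of POGZ_VC_8447, POGZ_VC_8448 and POGZ_VC_8451, at an adjusted p of 0.0700, 0.0613 and 0.0790, and without any 1 culture. Ctse, an aspartic protease, had 5.61, 6.13 and 37.3 CPM in the same knockout tumors, and its difference of 6.11 ± 1.04 was 4.63 without POGZ_KO_8459. Without that library both genes stayed called, at an adjusted p of 0.00482 for Satb1 and 0.00131 for Ctse. The call of Ctse was lost in 3 of 27 alternatives. Both genes fell in culture, Satb1 from 4.69 to 5.31 CPM down to 0.136 to 0.32 CPM.

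Of the 29 pathway lists, the type I interferon response had the lowest median difference. Interferons act through cell surface receptors on genes that carry an interferon-stimulated response element, whose core holds repeats of the letters GAAA. Of 38 genes tested, 33 had a difference below 0, with a median of -0.92 (0.03 over all genes), and 4 were called, all below 0 (10.5% of the list, 0.912% of all genes). In culture 30 of the 38 rose and 3 fell (23% and 24.9% of all genes in the culture fit), with a median log2 fold change of 0.71, whereas in tumors the median was -0.08 and none had an unadjusted p under 0.05. The median stayed between -1.04 and -0.66 in all alternatives. The number of members called ran from 2 without POGZ_VC_8451 to 11 without POGZ_VC_8448 among the fits that left out 1 tumor. The number was 2 without any 1 culture, 1 with limma-voom without quality weights and 10 with DESeq2. Promoters of 27 listed genes were found in RefSeq (GRCm38.p6), and GAAA, any 2 bases and GAAA again, on either strand, lay in the 250 bases before a start site for 10 of the 27 (37.0%) and for 3.46% of 27025 genes with a promoter. It was present for 9 of 117 genes called below 0 (7.69%) and for 3 of 152 called above 0 (1.97%). The 250 bases before the start are shown for Ifit3, Rsad2 and Ifi44, 3 members that rose in culture, 5′ to 3′ with each match in capitals. The stretch of Ifi44 holds no match to this exact pattern, and repeats at other spacings were not searched. Ifit3 and Rsad2 were chosen after their values were seen.
Ifit3, chr19:34583279-34583528, plus strand: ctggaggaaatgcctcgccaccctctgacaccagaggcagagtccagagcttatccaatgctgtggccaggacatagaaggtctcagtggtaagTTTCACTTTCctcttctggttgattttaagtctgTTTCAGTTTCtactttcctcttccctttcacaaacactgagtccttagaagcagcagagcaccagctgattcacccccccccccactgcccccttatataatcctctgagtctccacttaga
Rsad2, chr12:26456453-26456702, minus strand: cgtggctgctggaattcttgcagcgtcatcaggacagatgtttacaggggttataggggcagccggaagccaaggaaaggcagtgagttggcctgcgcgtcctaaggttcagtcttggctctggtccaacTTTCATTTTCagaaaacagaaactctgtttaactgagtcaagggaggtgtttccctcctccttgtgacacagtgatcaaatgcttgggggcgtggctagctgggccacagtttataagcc
Ifi44, chr3:151749911-151750160, minus strand: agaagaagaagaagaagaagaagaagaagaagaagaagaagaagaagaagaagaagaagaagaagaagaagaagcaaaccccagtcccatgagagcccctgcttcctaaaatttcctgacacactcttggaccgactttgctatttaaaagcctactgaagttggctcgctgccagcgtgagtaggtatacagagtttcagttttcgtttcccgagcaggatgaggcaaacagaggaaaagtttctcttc

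Ifi44, an interferon-induced protein with the largest size of difference among the called members, had 0.903, 0.751 and 1.13 CPM in control cultures and 9.10, 9.37 and 7.64 CPM in knockout cultures. The tumors had 193, 93.3 and 141 CPM with the control label and 68.5, 167 and 165 CPM with the knockout label. The culture groups were apart and the tumor groups overlapped, with POGZ_KO_8454 the lowest, and the difference was -3.30 ± 0.53 (adjusted p = 0.00853). Irf9, a transcription factor of the interferon response, differed by -0.91 ± 0.15, Xaf1, an interferon-induced binder of the apoptosis inhibitor XIAP, by -1.27 ± 0.25, and Rtp4, a receptor transport protein, by -0.94 ± 0.21. The calls of Xaf1 and Rtp4 were lost in 11 and 16 of 27 alternatives, in both without any 1 culture or POGZ_VC_8451, and for Rtp4 also without POGZ_KO_8459 or POGZ_VC_8447. Ifit3, an RNA-binding antiviral protein, had log2 fold changes of 2.55 and 0.38 and a difference of -2.17 ± 0.73 that was not called (adjusted p = 0.167). Rsad2, the antiviral enzyme viperin, had 1.59 and 0.57 and a difference of -1.02 ± 0.78 (adjusted p = 0.579). Iigp1, an interferon-induced GTPase outside the list, differed by -4.10 ± 0.54. With the knockout label it had 3.01 CPM in culture and 421 CPM in tumors, and with the control label 0.234 and 592 CPM. In tumors these genes are also made by host cells, and the tumor values do not separate the sources.

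Target genes of TGF-beta, a cytokine that drives matrix production and changes of epithelial cell state, were called below 0 for 5 of 34 genes tested (14.7%, against 0.912% of all genes) and above 0 for none. In culture 16 of the 34 rose and 5 fell, against 23% and 24.9% of all genes in the culture fit. The median difference was -0.24, from medians of 0.26 in culture and -0.04 in tumors, and 24 of the 34 lay below 0. The median ran from -0.41 to -0.15 over the alternatives. Fn1, the matrix protein fibronectin (chr1:71585520-71653200), had 785, 799 and 733 CPM in control cultures and 1848, 1934 and 1849 CPM in knockout cultures, but 9686, 4890 and 8839 CPM in control tumors and 6443, 5359 and 5374 CPM in knockout tumors. The tumor groups overlapped, and the difference was -1.73 ± 0.29 (adjusted p = 0.00974). Postn, the matrix protein periostin, differed by -1.99 ± 0.33, and Skil and Pmepa1, feedback inhibitors of the pathway, by -0.86 ± 0.19 and -0.75 ± 0.17. The calls of Skil and Pmepa1 were lost in 16 and 15 of 27 alternatives, in both without any 1 culture, POGZ_VC_8447 or POGZ_VC_8451, and for Skil also without POGZ_KO_8455 or POGZ_VC_8448. Ccn2, a matrix-associated growth factor, had a difference of -2.10 ± 0.48 at an adjusted p of 0.0494, and its call was lost in 18 of 27 alternatives, among them the fits without any 1 culture (0.122 to 0.144) and without POGZ_KO_8459 (0.0712), POGZ_VC_8448 (0.0714) or POGZ_VC_8451 (0.115). Without POGZ_VC_8451 the list had 2 called members, without POGZ_VC_8448 it had 3, and without POGZ_KO_8454 it had 9. It had 2 without any 1 culture, 1 after thinning to the smallest library and 6 with DESeq2.

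Among ligands and receptors of the TGF-beta family, 1 of 28 genes tested was called (3.57%, against 2.05% of all genes). Inhba, a subunit of activin (chr13:16011851-16031621), had 33.0, 30.6 and 31.1 CPM in control cultures and 41.4, 43.7 and 45.0 CPM in knockout cultures. It had 198, 200 and 153 CPM in control tumors and 98.5, 138 and 101 CPM in knockout tumors. Inhba was thus higher with the knockout label in culture and lower in tumors, without overlap, and the difference was -1.17 ± 0.18 (adjusted p = 0.00742). Of 18 genes tested in the mesenchymal list, 2 were called above 0 and 1 below 0 (1.13% and 0.912% over all genes). Twist1, a transcription factor of mesenchymal cells, differed by 1.66 ± 0.29 and Axl, a receptor tyrosine kinase, by 0.72 ± 0.14, both lower with the knockout label in culture. The call of Axl was lost in 11 of 27 alternatives, those without any 1 culture among them, and that of Twist1 in 6, among them 3 fits without 1 culture. Of 32 genes tested in the collagen and matrix list, 15.6% were called, against 2.05% of all genes. It had 2 called above 0, Spp1 and Col12a1 (1.81 ± 0.36), and 3 below 0. In the inflammatory list, 4 of 31 were called above 0 and 1 below 0 (1.13% and 0.912% over all genes). Il1rn, the interleukin-1 receptor antagonist, differed by 3.16 ± 0.57 and Tnfaip2, a TNF-induced gene, by 0.88 ± 0.11, whereas Csf1, the macrophage growth factor, differed by -1.40 ± 0.28. With the knockout label Csf1 had 299 CPM in culture and 105 CPM in tumors, and with the control label 127 and 117 CPM. The calls of Col12a1 and Csf1 were lost in 11 and 9 of 27 alternatives, in both without any 1 culture, for Col12a1 also without POGZ_VC_8447 or POGZ_VC_8451 and for Csf1 without POGZ_KO_8455. Il1rn lost its call in 6, among them 3 fits without 1 culture.

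**Figure D3:**
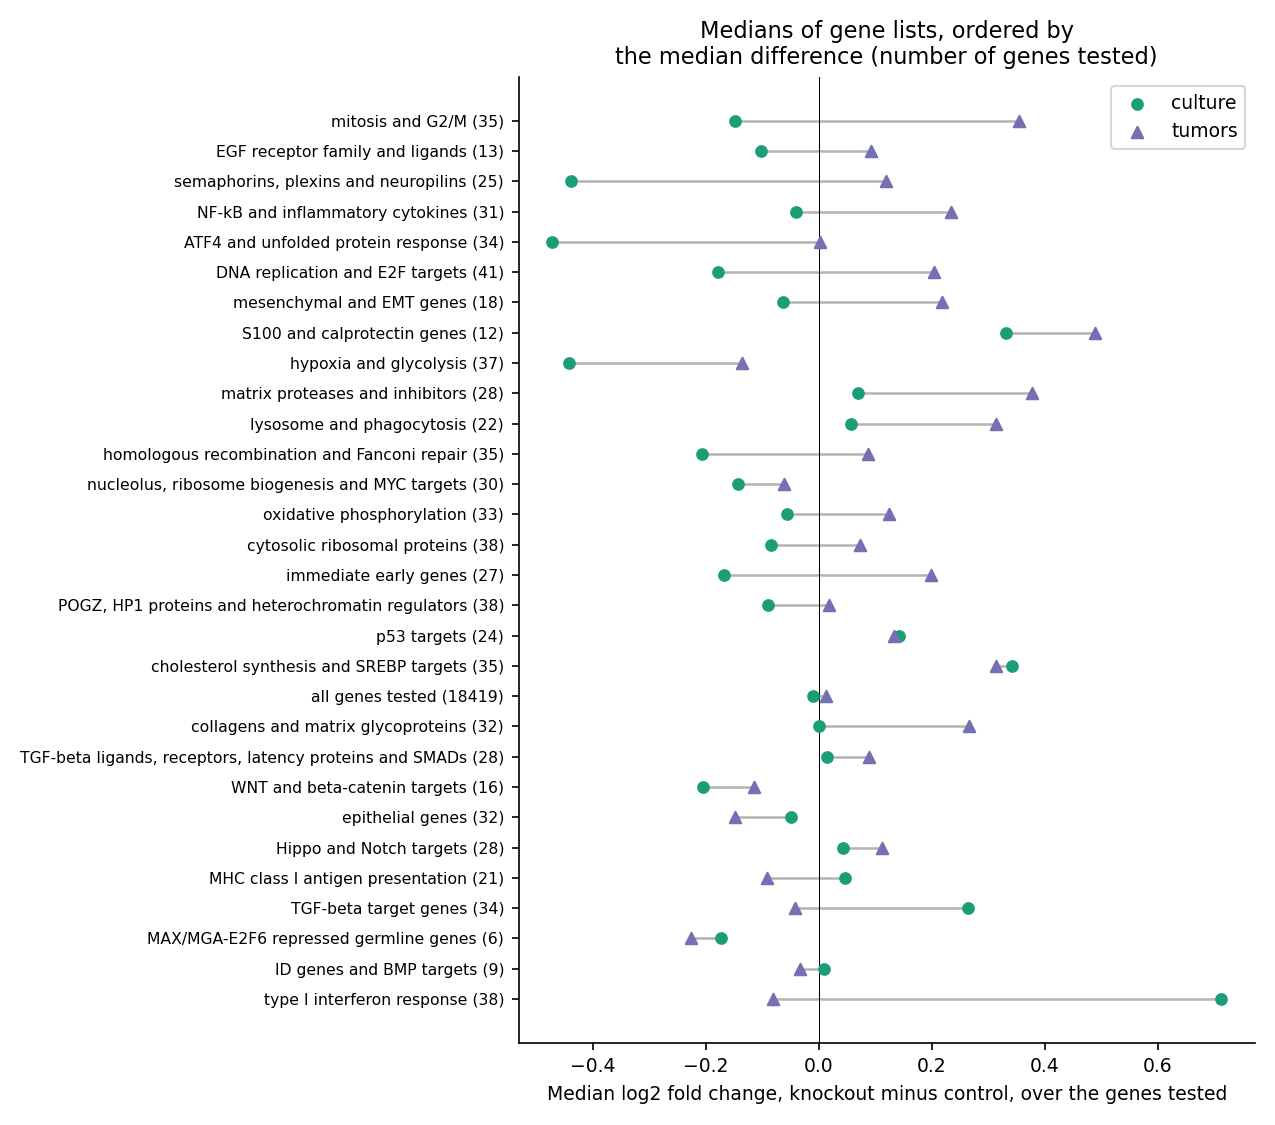
Median log2 fold change, knockout-labelled against control-labelled, of 29 pathway lists and of all genes tested, in culture (circles) and tumors (triangles), ordered by the median difference. The interferon list went from 0.71 in culture to -0.08 in tumors, and the mitosis list from -0.15 to 0.35.

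Some lists had a median difference away from 0 with few or no called genes. Of 35 genes of mitosis, 34 had a difference above 0 with a median of 0.51, from -0.15 in culture, where 20 fell and 7 rose, to 0.35 in tumors. None was called by edgeR or DESeq2 and none had an unadjusted tumor p under 0.05, but 7 were called without POGZ_KO_8454. Mki67, the Ki-67 proliferation marker, had 1102, 1190 and 1031 CPM in control cultures and 909, 882 and 864 CPM in knockout cultures. It had 391, 179 and 260 CPM in control tumors and 249, 421 and 768 CPM in knockout tumors, where the groups overlapped, and its difference was 1.12 ± 0.48 (adjusted p = 0.288). Of 41 DNA replication genes, 35 lay above 0 with a median of 0.39 and none was called. Targets of ATF4 and the unfolded protein response had medians of -0.47 in culture and 0.00 in tumors, and hypoxia and glycolysis genes -0.44 and -0.14, with 1 called gene each (Nupr1 and Aldoc, both below 0). These were 2.94% of 34 and 2.70% of 37 genes tested, against 2.05% over all genes. Cholesterol synthesis genes had nearly the same median in both, 0.34 and 0.31, with none called, and the sign of their median difference of 0.03 turned in 9 alternatives. Over all 45 lists, 38 of 940 different members were called, against 2.05% of all genes tested.

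How much of the culture effect was seen in tumors was described over the genes called in the culture fit with enough counts in both systems. Of 49 genes that rose by more than 2 on the log2 scale, 61.2% were also higher in knockout tumors, with a median tumor log2 fold change of 0.25 against 2.52 in culture. Of 128 genes that fell by more than 2, 39.1% were also lower in tumors, and the tumor median was 0.22 against -3.01 in culture. Among effects of 0.5 to 1, 62.1% of the genes that rose and 61.6% of those that fell had the same sign in tumors. Over 10713 genes whose log2 CPM, averaged over the 12 libraries, reached 3, the Pearson correlation of the 2 effects across genes was 0.14. Genes are not independent replicates, so no p is given.

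**Figure D4:**
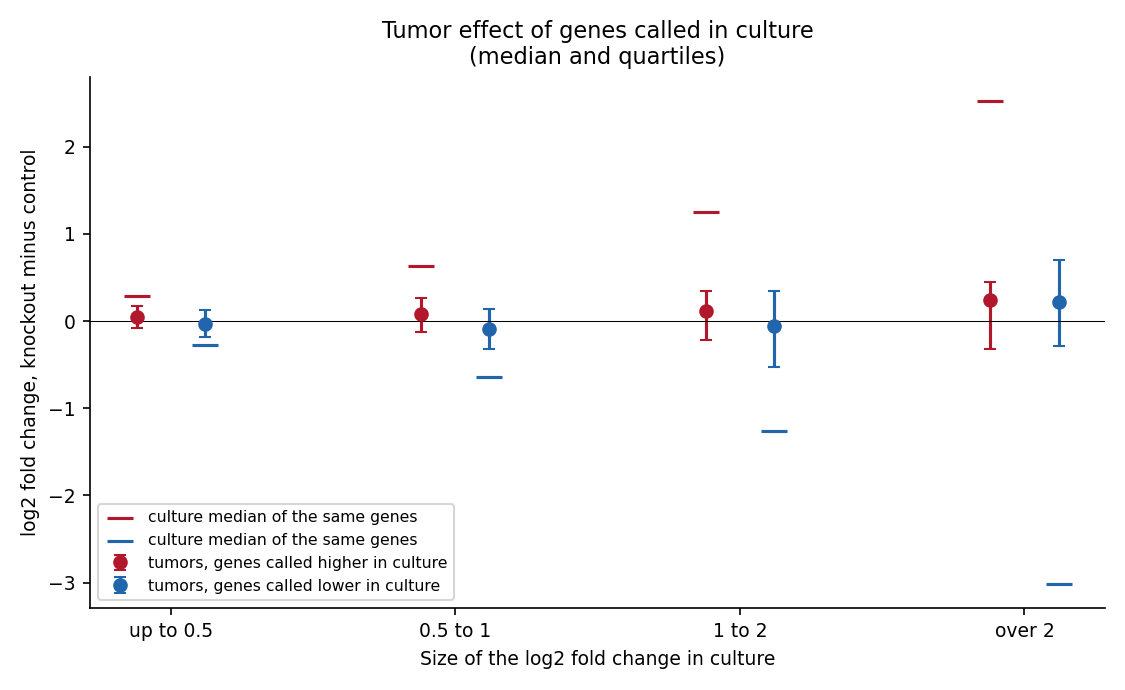
Log2 fold change in tumors (points, median with quartiles) of genes called higher (red) or lower (blue) in culture, by the size of the culture effect on the x axis; dashes give the culture median of the same genes. Tumor medians stayed between -0.09 and 0.25 in every bin, while culture medians reached 2.52 and -3.01.

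The share of called genes differed with the level in tumors against cultures. Genes were binned by the mean log2 CPM of the tumors minus that of the cultures. Both labels enter these means, so a loss in knockout cultures alone moves a gene toward the higher bins. The shares by bin are therefore not independent of the culture effect. Where that value was between -1 and 1, 155 of 11472 genes were called (1.35%), and where it was over 3, 84 of 2142 (3.92%). Among genes with a culture effect of more than 1, 57.4% of 258 had the same sign in tumors in the former bin and 43.2% of 870 in the latter. Called differences were thus found both for genes with like levels in the 2 systems, such as Errfi1 and Cldn3, and for genes read mainly in tumors, such as Casp12 and Postn. Marcks had 75.4 to 78.2 CPM in control cultures and 101 to 127 CPM in control tumors. With the knockout label it had 1.45 to 2.42 CPM in cultures and 137 to 196 CPM in tumors. The part of host cells in these values was not tested.

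Chromosome medians were farther from 0 in culture for some chromosomes and in tumors for others. Over 9929 genes that averaged 3 log2 CPM or more in each system, the median log2 fold change of chromosome 6 was -0.46 in culture and -0.06 in tumors (465 genes), that of chromosome 4 was -0.29 and -0.09, that of chromosome 3 was 0.32 and 0.11 and that of chromosome 2 was 0.24 and 0.04. In culture the chromosome 6 median ran from -0.46 to -0.43 in the 3 knockout libraries and from -0.00469 to 0.00726 in the controls, each control against the other controls. In tumors it ran from -0.10 to 0.02 in the knockouts and from -0.13 to 0.21 in the controls, which overlapped. Chromosome 18 was farther from 0 in tumors, at -0.01 in culture and 0.23 in tumors, where 91.8% of 243 genes were higher with the knockout label. So were chromosome 19 (-0.05 and 0.15), chromosome X (-0.005 and 0.16) and chromosome 8 (-0.10 and -0.17). In tumors 79.2% of the genes on chromosome 19 and 79.5% on X were higher with the knockout label. Genes of a chromosome are not independent replicates, and medians of single libraries were not taken for chromosomes 18, 19, X and 8. Control tumors, each against the other controls, ran from -0.27 to 0.17 on chromosome 2 and from -0.01 to 0.01 on chromosome 4. Chromosomes 7, 9 and 13 were also farther from 0 in tumors, at 0.06, -0.03 and 0.02, and all others in culture. The share of genes called by the difference test ran from 0.552% on chromosome 17 to 4.16% on chromosome 6, against 2.05% over all. It was 3.77% on chromosome 13, 2.93% on chromosome 3, 2.74% on X and 2.71% on chromosome 18.

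**Figure D5:**
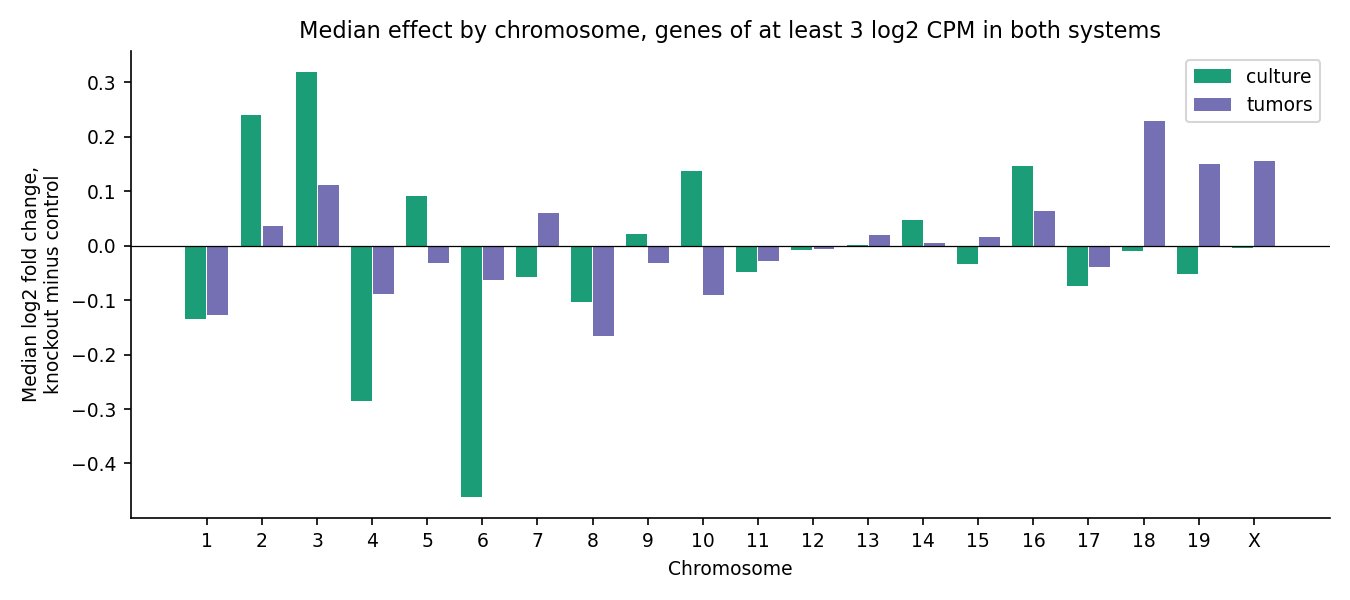
Median log2 fold change by chromosome in culture and in tumors, over genes of at least 3 log2 CPM in both systems. Chromosome 6 reached -0.46 in culture and -0.06 in tumors, and chromosome 18 -0.01 and 0.23.

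Some genes had like effects in both systems, and those named here were chosen after their values were seen. Padi3, an enzyme that converts arginine to citrulline, had 48.8, 48.0 and 48.5 CPM in control cultures and 8.98, 12.3 and 11.1 CPM in knockout cultures, and 3.61, 8.28 and 6.25 CPM in control tumors and 0.989, 0.997 and 1.72 CPM in knockout tumors. It was lower without overlap in both, by -2.17 and -2.33, and the difference was -0.16 ± 0.37 (adjusted p = 0.902). Entpd3, an ectonucleotidase, had -1.24 and -1.46, and Eya1, a transcriptional coactivator with phosphatase activity, -0.93 and -1.24. Heg1, a membrane protein of junctions, was higher in both, by 1.53 and 0.99. A p that misses the threshold does not show that these effects are equal, and none passed the tumor test.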

How the data were processed

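The authors deposited raw counts per gene, 1 table of 6 cultures and 1 of 6 tumors. The tools that the submitters' processing notes name are featureCounts 1.4.4, STAR 2.3.0e and Trimmomatic 0.32, with the build mm10; the annotation and the strand setting are not given in the sources used here, so overlapping genes and pseudogenes are less certain. The tables were joined by Ensembl ID (39017 genes, 37693 of them in GENCODE M21, GRCm38). edgeR 4.0.16 in R 4.3.3 was used with filterByExpr, TMM scaling, 1 mean per group and the quasi-likelihood test, with Benjamini-Hochberg adjustment over all genes tested. The difference used all 12 libraries, and calls in 1 system used its 6. Log2 fold changes are from the fit of 12, SE is their size over the square root of F, and CPM are counts scaled to the library total. The members and lists were chosen with earlier results of these data known, so no list is independent evidence. Named genes were Pogz, called genes with the smallest p or the largest difference either way, those with the smallest p per class and list, and genes of large culture effect; others are said to be chosen after their values were seen. A gene that the rule names is not reported here. In simulated counts of this contrast over 18150 genes, 24% of 100 genes changed 2-fold and 90% of 100 changed 4-fold were recovered, with 3 unchanged genes called. The changed genes were drawn from those above 2 CPM in both systems, and only knockout cultures were changed. Recovery of tumor changes or of lower genes was not simulated. Alternatives were other scalings and filters, DESeq2 1.42.0, limma-voom, thinning, a block and leaving out each library. Python 3.11.15 read tables and drew figures. Total counts ran from 4712001 to 21863223.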

Additional observations from a re-analysis of the deposited data

Results flagged for a closer look

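The test of the difference itself set the effect in tumors apart from that in culture for 377 genes. Among the genes named by rule, 18 of the called ones reported here also had groups without overlap in both systems after TMM scaling and opposite directions, so that every knockout-labelled culture lay on 1 side of the controls and every knockout-labelled tumor on the other. Being called by the difference of the 2 effects favors opposite directions. With the knockout label lower in culture and higher in tumors, the log2 differences, tumor minus culture, were Marcks 5.81, Csgalnact1 2.07, Pdgfra 1.76, Slit2 6.88, Adamts8 1.67, Ctsl 1.08, Krt15 3.31 and Nfkb2 0.51. With the label higher in culture and lower in tumors, they were Casp12 -1.68, Vwa2 -4.26, Gad2 -3.58, Scn8a -7.37, Errfi1 -1.63, Zfp979 -4.87, Inhba -1.17, Foxj1 -3.58, Aldoc -2.65 and Nupr1 -0.94. Krt15, a basal keratin, was under 2 CPM in every library, and fitted values of Scn8a and Slit2, each with a culture group without counts, depend on the prior count. In CPM without that scaling, the tumor groups of Slit2 and the culture groups of Adamts8 overlapped. Some of these calls depended on the setting: the call was lost in 22 of 27 alternatives for Nfkb2, 13 of 27 for Nupr1, 12 of 23 for Krt15, 10 of 27 for Adamts8 and 8 of 27 for Ctsl.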

How the results depend on the processing

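Every one of the 377 genes that an alternative tested kept its sign there. The number of called differences was 953 with DESeq2, 125 at an adjusted p under 0.01, 232 in a test against a fold of 1.2, 97 after thinning all libraries to the smallest and 147 to 1588 when 1 library was left out. Thinning tested fewer genes and counts; the cause of the other shifts was not tested. The other 10 alternatives of scaling, filtering and tool gave 282 to 420. The culture numbers did not pair the samples (correlations of -0.16, 0.03 and 0.07 for equal numbers), and a fit with them as a replicate block gave 131 calls, 130 of them among the 377, and 7237 in culture. In the fit of all 12 libraries the culture effect was called for 1501 genes and the tumor effect for 64; DESeq2 called the tumor effect for 66. Leaving out 1 library gave 6551 to 7407 culture calls and 0 tumor calls throughout. Of 69 called named genes, 29 were called in all alternatives that tested them and 13 lost the call in more than 10. Signs turned for Pet2, with -4.84 to 0.043 when 1 library was left out (0.043 without POGZ_VC_8451), and for Cyp2c55, with -1.13 to 0.70 (0.70 without POGZ_VC_8448), neither of which was called. With 3 tumors a group and as few as 4712001 counts, 2-fold changes placed in the knockout cultures were mostly missed in the simulated counts.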
